A study of Arabidopsis thaliana with 12 samples.

Results

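The comparison of cngc1 mutant roots with wild-type roots rests on the 3 arrays labelled cngc1 and the 3 arrays labelled ws2, 6 of the 12 arrays of a series that also holds 3 akt1 and 3 cngc4 arrays. The samples were chosen by these labels alone, and the comparison covers all 22746 probe sets that are not controls, of which 14745 gave enough signal to be tested. Transcripts of whole Arabidopsis thaliana roots, pooled from 20 to 40 plants per sample, were measured on single-colour GeneChips, which report 1 signal in arbitrary units per probe set. Each mutant carries the name of a channel gene. The wild type ws2 is the accession Wassilewskija. The labels give that ecotype for ws2 and akt1, and for the cngc1 samples only the name of the mutant, so a difference between cngc1 and ws2 roots cannot be told apart from a difference between accessions. The labels used here name no allele and no number of independent lines for any mutant, and they leave unsaid whether each replicate was grown on its own. The spread behind each p-value may therefore be technical.

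Cyclic nucleotide-gated channels are cation channels of the plasma membrane whose inner end binds cyclic nucleotides and calmodulin, the calcium sensor of the cell. CNGC1 is a member found in roots, where the family is known for carrying potassium, sodium and calcium ions into cells. AKT1 takes up potassium into root cells, and CNGC4 is another member of the cyclic nucleotide-gated family, known for its part in defence.

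The arrays of the compared genotypes were on the same scale, with median signals of 46.2 to 48.5 in cngc1 and 45.95 to 48.5 in ws2. The array of cngc1 replicate 3 had the highest background and noise of all 12 arrays, and its mean correlation with the other arrays of its genotype, 0.954, was the lowest. Of the cngc1 arrays, replicate 2 correlated best with a ws2 array and replicate 3 with an akt1 array. Replicate 3 of ws2 and replicates 1 and 3 of akt1 likewise correlated best with an array of another genotype, whereas each cngc4 array correlated best with a cngc4 array. The GAPDH control probes at the 3-prime and 5-prime ends, a reading of RNA integrity, had a ratio of 1.12 to 1.24 in cngc1 and of 1.03 to 1.09 in ws2, with no overlap. The same ratio of the actin control probes stood the other way, at 1.42 to 1.54 in cngc1 and 1.53 to 1.94 in ws2, and overlapped. The part of either ratio in the differences described here was not tested. CNGC1 itself was not analysed here, so the genotype of the arrays was not checked against the missing gene.

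In cngc1 roots 1 transcript, AT1G27090, was lower than in ws2 and passed the test, and no other probe set did. The test was limma with Benjamini-Hochberg adjustment over all 14745 probe sets, and an adjusted p under 0.05 counted as a pass, which gives 0.00678% of the probe sets. The unadjusted p was under 0.05 for 548 probe sets that were higher in cngc1 (3.72%) and for 532 that were lower (3.61%). The 3 cngc1 arrays lay above the 3 ws2 arrays for 1029 probe sets (6.98%) and below them for 862 (5.85%). The median log2 fold change over all tested probe sets was 0.01, and 90% of the values lay between -0.34 and 0.32.

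The arrays set bounds on what could have gone unseen. A log2 fold change had a standard error of 0.16 in the median probe set. The 95% confidence interval of the cngc1 to ws2 difference lay within 2-fold either way for 14329 probe sets (97.2%) and within 1.5-fold for 11037 (74.9%). On the scale of log2(signal + 16), a difference of 2-fold was thus outside the interval for nearly all probe sets tested, while one of 1.5-fold was outside it for 74.9%. Probe sets too dim to test have no interval, and at low signal a change in the signal itself can be larger than these limits. Values are given below as signals on the linear scale, and fold changes on the scale of log2(signal + 16), on which a change at low signal comes out too small. Where all 3 arrays of a genotype lay below the 40th percentile of their arrays, the fold is given as a bound, with each of those arrays set at that percentile. Such a bound compares group averages and leaves out the spread between arrays. No bound is given where the 95% interval of the log2 fold change included 0.

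**Figure D1:**
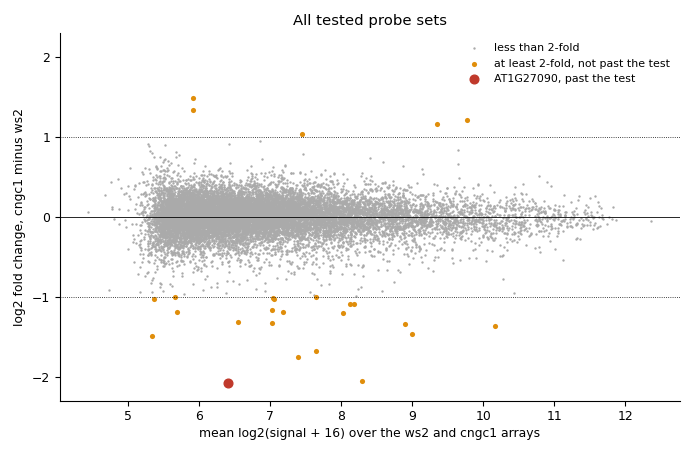
Each point is 1 of 14745 probe sets, with its mean log2(signal + 16) over the ws2 and cngc1 arrays on the horizontal axis and its log2 fold change in cngc1 minus ws2 on the vertical axis. Dotted lines mark 2-fold. The 26 probe sets at least 2-fold apart comprise 5 above the line at 1 and 21 below the line at -1, and AT1G27090 at -2.08 is the only one past the test.

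AT1G27090 is a protein-coding gene known here by its locus number only. Its signal was 188, 162 and 130.1 on the 3 ws2 arrays and 27.8, 24.3 and 23.5 on the 3 cngc1 arrays, with 128, 119 and 134 in akt1 and 196, 134 and 173 in cngc4. The 3 cngc1 arrays were the lowest of all 12, with the highest of them at 27.8 and the lowest array of any other genotype at 119. The log2 fold change against ws2 was -2.08 with a standard error of 0.15 (95% interval -2.40 to -1.77, limma adjusted p = 6.22e-06). All 3 cngc1 signals lay below the 40th percentile of their arrays, which was 31.7 to 32.7, so the size of the drop is a bound: with each cngc1 array set at that percentile, the ws2 signal was at least 4.89-fold higher. The same 3 cngc1 arrays were also below akt1, by -1.80 (adjusted p = 4.86e-05), and below cngc4, by -2.14 (adjusted p = 4.14e-06). Fewer cells of a type and less RNA per cell cannot be told apart in whole roots, here or in any value below. A single probe set reports this gene, so there is no second probe set against which to check it.

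The genes next to AT1G27090 on chromosome 1 did not show a like difference. Of the 10 genes within 5 places on either side in the gene order of the reference table, 3 were tested, 1 has a probe set that was too dim to test and 6 have no named probe set here. AT1G27070 read 27.6, 33.6 and 38.2 in ws2 and 35.1, 39.1 and 60.9 in cngc1 (log2 fold change 0.30). AT1G27100 read 106, 116 and 117 in ws2 and 121, 109 and 96.3 in cngc1, a log2 fold change of -0.06 that turned positive without cngc1 replicate 3 or without the arrays marked as repeats. AT1G27120 read 34.3, 56.6 and 60.5 in ws2 and 26.9, 31.0 and 39.8 in cngc1 (log2 fold change -0.44, limma adjusted p = 0.644). The ranges of cngc1 and ws2 overlapped for each of these neighbours, and none of them passed.

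The probe set of second smallest p in the comparison has no gene named here. It read 141, 128 and 188 in ws2 and 70.9, 68.0 and 77.1 in cngc1, against 198, 130.2 and 146 in akt1 and 242, 238 and 205 in cngc4. Like AT1G27090, it was lower on the 3 cngc1 arrays than on each of the 9 other arrays. Its log2 fold change against ws2 was -0.92 (limma adjusted p = 0.169), which did not pass, and neither did the difference from akt1 (-0.97, adjusted p = 0.0759). The difference from cngc4 passed (-1.47, adjusted p = 6.04e-04). It passed against ws2 as well when akt1 replicate 1 was left out of the shared estimate of the spread.

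Such separation from every other array was uncommon. The 3 cngc1 arrays lay above all 9 other arrays for 169 probe sets (1.15%), 78 of them naming 1 gene, and below them for 77 (0.522%), 44 of them naming 1 gene. The corresponding numbers above and below were 104 and 75 for ws2, 92 and 99 for akt1, and 899 and 755 for cngc4. The cngc4 arrays thus stood apart for far more probe sets than the cngc1 arrays did.

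Genes with a symbol in the gene table, an unadjusted p under 0.01 and cngc1 arrays clear of the ws2 arrays numbered 13, 6 of them higher and 7 lower in cngc1. They were picked after their values were seen, and none of them passed the test. NDB1, an NAD(P)H dehydrogenase of mitochondria, read 51.0, 51.5 and 42.2 in ws2 and 71.4, 80.8 and 70.1 in cngc1, with 47.1, 42.7 and 54.9 in akt1 and 47.8, 56.3 and 48.7 in cngc4. All 3 cngc1 arrays were above the 9 others (log2 fold change 0.49, standard error 0.13, adjusted p = 0.511). GPDHp, a plastid glycerol-3-phosphate dehydrogenase, which makes the backbone of glycerolipids, read 55.2, 65.1 and 47.6 in ws2 and 71.5, 96.8 and 99.7 in cngc1, also above each array of the other genotypes (log2 fold change 0.55, standard error 0.14, adjusted p = 0.511). BGLU42, a beta-glucosidase, read 131, 140.2 and 128 in ws2 and 187, 169 and 253 in cngc1, with 113, 93.9 and 141 in akt1 and 91.1, 113 and 90.9 in cngc4. Here too the cngc1 arrays stood above the rest, with replicate 3 the highest (log2 fold change 0.53, standard error 0.16, adjusted p = 0.552), and the difference from cngc4 passed (0.92, adjusted p = 0.00551).

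In the other 3 genes with higher signal than ws2, the mean of cngc4 was above that of cngc1. APS4, an ATP sulfurylase, the first enzyme of sulfate assimilation, read 402, 425 and 506 in ws2 and 684, 572 and 806 in cngc1 (log2 fold change 0.61), with 556, 712 and 913 in cngc4. CCT2, an enzyme of phosphatidylcholine synthesis, read 18.5, 31.9 and 14.2 in ws2 and 40.8, 36.4 and 41.4 in cngc1, and lay below the 40th percentile on every ws2 array, so it was at least 1.22-fold higher in cngc1. PEP, the RNA-binding protein PEPPER known for its part in flower development, read 52.2, 49.2 and 52.6 in ws2 and 78.2, 59.9 and 84.8 in cngc1 (log2 fold change 0.41), and akt1 and cngc4 arrays read at the same height as cngc1. None of the 6 passed against ws2, with adjusted p between 0.511 and 0.607.

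The 7 genes with lower signal in cngc1 did not pass either. TMT2, a sugar carrier of the vacuolar membrane, read 74.5, 73.1 and 51.3 in ws2 and 41.2, 25.3 and 44.6 in cngc1 (log2 fold change -0.64, standard error 0.18, adjusted p = 0.531), and cngc4 read lower still, at 39.9, 30.2 and 28.6. GH3.17, an enzyme that joins auxin to amino acids, read 256, 247 and 297 in ws2 and 146, 184 and 179 in cngc1 (log2 fold change -0.61, standard error 0.18, adjusted p = 0.544), while akt1 read 237, 374 and 379.8. The ws2 and cngc1 arrays of both genes were clear of each other. ARPN, the blue copper protein plantacyanin, read 428, 382 and 541 in ws2 and 295, 343 and 279 in cngc1 (log2 fold change -0.53, standard error 0.16, adjusted p = 0.544), and the 3 cngc4 arrays lay at the cngc1 level. NAC014, ATL4H and ARPN were each clear of ws2 on all 3 cngc1 arrays. ATL4H, named for the ATL family of ring-finger ubiquitin ligases, had a log2 fold change of -0.65 and read 69.5, 67.1 and 53.3 in ws2 and 41.3, 47.8 and 19.0 in cngc1. NAC014, a NAC transcription factor, read 49.8, 55.6 and 50.6 in ws2 and 41.7, 33.4 and 27.1 in cngc1 (log2 fold change -0.45) and was below cngc4 by a difference that passed (-0.64, adjusted p = 0.0186). ATHSP22.0, a small heat shock protein, read 23.7, 38.4 and 27.0 in ws2 and 16.4, 17.2 and 3.6 in cngc1, below the 40th percentile on 2 of the ws2 arrays and on all 3 cngc1 arrays, so no fold is given.

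**Figure D2:**
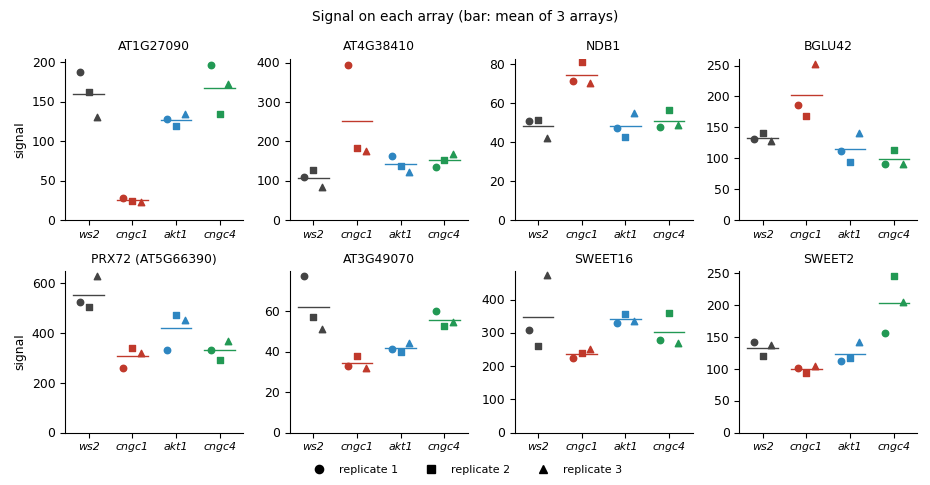
Signal in arbitrary units on each array, by genotype, for 8 genes, with a bar at the mean of the 3 arrays and a symbol for each replicate number. The 3 cngc1 arrays lie below all 9 others for AT1G27090, AT3G49070, SWEET16 and SWEET2, and above them for AT4G38410, NDB1 and BGLU42, while for PRX72 they lie below the 3 ws2 arrays and among the cngc4 arrays.

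Of the genes named by smallest p, 15 in each direction with ws2 and cngc1 arrays that did not overlap, most are known here by locus number only. The highest p among these 30 was 0.0035 unadjusted, and, AT1G27090 apart, the adjusted p ran from 0.169 to 0.544. Among the higher ones, AT3G05950 read 603, 559.5 and 510.1 in ws2 and 1632, 1019 and 1358 in cngc1, AT5G66180 read 34.8, 7.6 and 23.4 in ws2 and 142, 63.4 and 66.6 in cngc1, and AT4G38410 read 110.3, 126 and 84.0 in ws2 and 395, 182 and 176 in cngc1. AT4G38410 was highest in cngc1, with replicate 1 far above the other 2 arrays, whereas for AT3G05950 and AT5G66180 at least 1 akt1 array and all 3 cngc4 arrays read at or above the lowest cngc1 array. For AT3G05950 and AT5G66180 each akt1 and cngc4 array also read above each ws2 array. The log2 fold changes against ws2 of AT3G05950, AT5G66180 and AT4G38410 were 1.21, 1.48 and 1.04. The other higher genes were AT1G49570 (1.17), AT3G07720 (0.84), AT1G69526 (0.81), AT3G06200 (at least 1.27-fold higher), AT3G11830 (0.63), GPDHp, AT2G35750 (0.54), AT5G12010 (0.52), AT1G18440 (0.52), AT2G19180 (at least 1.45-fold higher), NDB1 and AT5G62360 (0.44). AT5G66180 and AT1G69526 each lay below the 40th percentile on 2 of the ws2 arrays. Over the alternative settings their log2 fold changes ran from 0.82 to 2.20 and from 0.42 to 1.21.

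On the lower side the most separated gene after AT1G27090 was PRX72 (AT5G66390), described with the peroxidases below. AT4G28085 read 109.9, 87.8 and 109 in ws2 and 40.4, 55.0 and 60.7 in cngc1 (log2 fold change -0.80), and AT3G49070 read 77.4, 57.0 and 51.0 in ws2 and 33.1, 37.9 and 31.9 in cngc1 (log2 fold change -0.62). AT3G49070 was lower on the cngc1 arrays than on any other array, and its difference from cngc4 passed (-0.51, adjusted p = 0.044). AT5G56980 read 67.6, 71.1 and 83.8 in ws2 and 51.2, 44.6 and 33.7 in cngc1 (log2 fold change -0.61), with 94.5, 75.6 and 106 in cngc4, and was likewise lowest in cngc1. The others were AT5G14650 (-0.91), AT1G78990 (-0.84), AT4G04630 (at least 1.30-fold lower), AT2G19970 (-0.76), AT5G13900 (-0.70), AT2G22510 (-0.69), AT4G26790 (-0.69), AT1G56320 (-0.59), AT3G13410 (-0.55) and AT4G38080 (-0.48).

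The comparisons of akt1 and cngc4 with ws2 share the 3 ws2 arrays, so the likeness of the mutants is not counted. Values of akt1 and cngc4 are given for some of these genes only. A difference from ws2 listed above is therefore not shown to be particular to cngc1. Set directly against the other mutants, 1 of the 30 differed from akt1 past the test, AT1G27090, and 8 differed from cngc4. These tests reuse the cngc1 arrays by which the 30 were picked, so the numbers are descriptive only. In all, 1 probe set (0.00678%) differed between cngc1 and akt1, and 762 (5.17%) between cngc1 and cngc4. The number against cngc4 was 248 without cngc1 replicate 3 and 129 without cngc4 replicate 2.

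**Figure D3:**
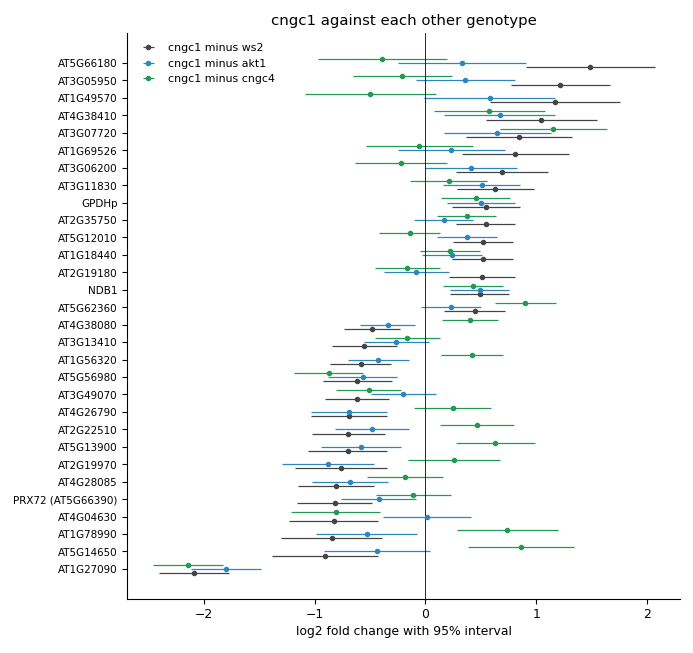
Log2 fold change of cngc1 against ws2, akt1 and cngc4 with its 95% confidence interval, for the 15 genes of smallest p in each direction against ws2. AT1G27090 lies near -2 in each comparison, while AT5G66180, AT3G05950 and AT1G49570 lie above 1 against ws2 and have intervals against cngc4 that include 0. Fitted values are drawn also for genes whose fold is given as a bound.

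The class III peroxidases, secreted enzymes that use hydrogen peroxide to cross-link or loosen the cell wall, had log2 fold changes from -0.82 to 1.17 in cngc1 roots, the widest range of any list. The list holds loci taken from general knowledge of the family, most of them given by locus number alone in the gene table, and 44 of its 55 named members were tested. None passed. Of the 44, 29 were negative and 15 positive in log2 fold change. The median was -0.10, against one of 0.00 over all 8058 tested genes, of which 49.1% were negative. The cngc1 arrays lay below the ws2 arrays for 8 members (18.2%) and above them for 2 (4.55%), beside 5.85% and 6.98% of all probe sets. This and the lists below were chosen with earlier results of these data known, so their shares are descriptive only. Without cngc1 replicate 3 the median was 0.02, so its sign rested on that array.

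PRX72 had the smallest p of the family. It read 524, 503 and 630.5 in ws2 and 259, 341 and 321 in cngc1, with 333, 472 and 452 in akt1 and 332, 293 and 370.5 in cngc4. The lowest ws2 array was well above the highest cngc1 array, and cngc4 lay at the cngc1 level (log2 fold change -0.82, standard error 0.16, adjusted p = 0.295). AT1G49570, a locus of the same list, stood in the opposite direction, at 452, 387 and 415 in ws2 and 1302, 706 and 951 in cngc1 (log2 fold change 1.17, standard error 0.28, adjusted p = 0.478), with 1119, 515 and 442 in akt1 and 1171, 1623 and 1313 in cngc4. AT1G44970 read 230.4, 199 and 232 in ws2 and 126, 149 and 148 in cngc1 (log2 fold change -0.59), and AT2G18980 read 399, 475 and 279.8 in ws2 and 213, 260.3 and 253 in cngc1 (log2 fold change -0.61). Both pairs of groups were clear of each other. In each of these 4 loci at least 1 array of another mutant read within the cngc1 range or beyond it.

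PRX72 and AT1G44970 also stand on the list of Casparian strip and suberin genes, which describes the barrier that endodermal cells build in their walls. Its 3 tested members, with GSO1, all had cngc1 arrays below the ws2 arrays, as did 5.85% of all probe sets. GSO1, the receptor kinase GASSHO1 that is needed for an unbroken Casparian strip, read 232, 196 and 247 in ws2 and 155, 129 and 174 in cngc1 (log2 fold change -0.52, standard error 0.15, adjusted p = 0.544), while cngc4 read 157, 142 and 198. The signals of the 3 genes summed to 898 to 1109 on the ws2 arrays and to 539.7 to 643 on the cngc1 arrays. The list's other loci have no named probe set here, and 2 of the 3 genes are also counted with the peroxidases.

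The SWEET sugar transporters, which let sucrose, glucose or fructose pass across plasma membranes and vacuolar membranes, had mostly lower signals in cngc1. Of 14 named members 9 were tested, 8 with a negative log2 fold change, beside 49.1% of all tested genes. The cngc1 arrays were below the ws2 arrays for 4 (44.4%) and above them for 0, beside 5.85% and 6.98% of all probe sets, in a list chosen with earlier results known. The median was -0.25, and it ran from -0.38 to -0.12 over the alternative settings. No member passed. SWEET16, a carrier of the vacuolar membrane, read 308, 261 and 473 in ws2 and 224, 238 and 251 in cngc1, with 329, 356 and 336 in akt1 and 278, 359 and 270.5 in cngc4 (log2 fold change -0.48, standard error 0.18, adjusted p = 0.63). SWEET2, also vacuolar and known to hold back sugar loss from roots, read 143, 119.8 and 137 in ws2 and 102, 93.1 and 105 in cngc1, with 112, 117 and 142 in akt1 and 157, 246 and 206 in cngc4 (log2 fold change -0.36, standard error 0.15, adjusted p = 0.646). For both genes the 3 cngc1 arrays were the lowest of the 12, although by a narrow margin, and for SWEET2 the difference from cngc4 passed (adjusted p = 0.00458). SWEET13, a sucrose carrier, read 73.3, 82.0 and 69.9 in ws2 and 45.8, 54.9 and 66.5 in cngc1 (log2 fold change -0.35). SWEET6 read 30.5, 36.1 and 44.0 in ws2 and 30.7, 25.3 and 24.2 in cngc1, and the groups overlapped. No bound is given for SWEET6, as the interval of its log2 fold change against ws2 ran from -0.67 to 0.06.

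The glutathione transferases, which join glutathione to toxic or oxidised compounds, had mostly lower signals as well. Of 14 named members 12 were tested, 10 of them negative in log2 fold change beside 49.1% of all tested genes. The median was -0.20, and none passed. The cngc1 arrays were below the ws2 arrays for 3 members (25.0%) and above them for 0, beside 5.85% and 6.98% of all probe sets. GSTU22 read 112, 89.3 and 118 in ws2 and 74.3, 75.2 and 83.4 in cngc1 (log2 fold change -0.38) and GSTF4 read 59.6, 60.1 and 46.2 in ws2 and 34.1, 40.2 and 36.0 in cngc1 (log2 fold change -0.43), each without overlap. GSTU28 read 216, 179 and 337 in ws2 and 143, 181 and 171 in cngc1 (log2 fold change -0.48), with ws2 replicate 3 far above the other ws2 arrays, and GSTU25 read 49.9, 62.1 and 29.6 in ws2 and 26.6, 30.5 and 29.1 in cngc1, at least 1.39-fold lower. For these last genes the groups overlapped. The cngc4 mean was below the cngc1 mean for each of these 4 genes, at 90.9, 99.5 and 111 for GSTU28.

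**Figure D4:**
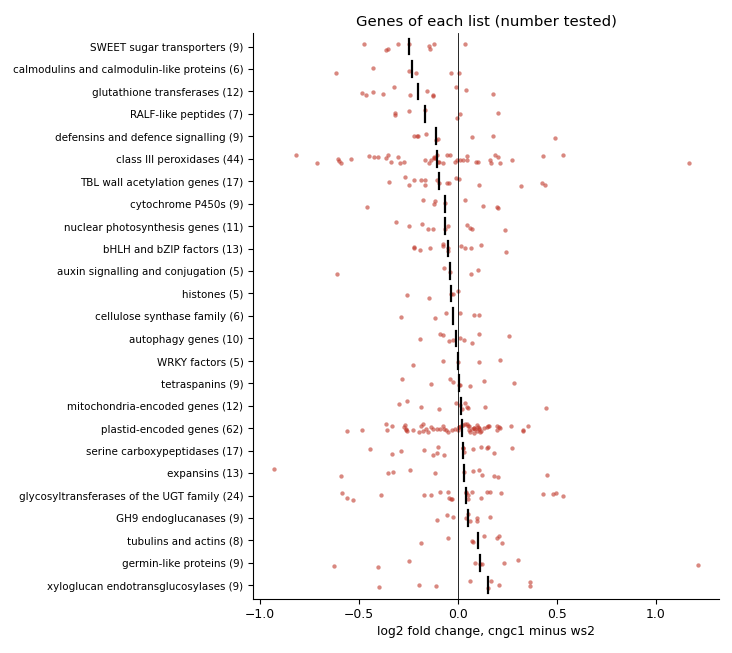
Log2 fold change in cngc1 minus ws2 of each tested gene, by gene list, for the 25 lists with at least 5 tested genes, with a black bar at the median of each list and the number of genes in brackets. List medians run from -0.25 for the SWEET sugar transporters to 0.15 for the xyloglucan endotransglucosylases, and no gene on any list passed the test.

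Genes of wall loosening and wall assembly lay on both sides. The expansins, which loosen the contacts between wall polymers, had 7 positive and 6 negative log2 fold changes over 13 tested genes. EXPB2, a beta-expansin, read 518, 534 and 472 in ws2 and 199, 497 and 173 in cngc1, with 320.4, 340.3 and 381 in akt1 and 139, 107 and 144 in cngc4. Replicate 2 of cngc1 was at the ws2 level and the other 2 cngc1 arrays were far below it, so the groups overlapped (log2 fold change -0.93, adjusted p = 0.534). Without that array EXPB2 passed, with a log2 fold change of -1.38 and limma adjusted p = 0.00232, the only call besides AT1G27090 under that setting. EXPA8 read 44.2, 61.7 and 49.8 in ws2 and 25.9, 46.6 and 18.3 in cngc1 (log2 fold change -0.59), and EXLB1 read 73.6, 72.8 and 74.9 in ws2 and 111, 109.5 and 100.5 in cngc1 (log2 fold change 0.45), below the 216, 331 and 158 of cngc4.

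Of 9 tested xyloglucan endotransglucosylases, which cut and rejoin xyloglucan chains, 6 had positive log2 fold changes, and the median of 0.15 was the highest of any list with at least 5 tested genes. XTH32 read 74.2, 79.8 and 57.8 in ws2 and 93.4, 83.9 and 109 in cngc1 (log2 fold change 0.37), just clear of ws2, and XTH20 read 233, 210.4 and 186 in ws2 and 150.0, 187 and 132 in cngc1 (log2 fold change -0.40), on the other side. Of 17 tested genes of the TBL family, which acetylate wall polysaccharides, 12 had negative log2 fold changes with a median of -0.10. TBL41 read 46.5, 24.3 and 43.3 in ws2 and 68.6, 49.1 and 52.0 in cngc1 (log2 fold change 0.44) and TBL45 read 91.5, 87.3 and 81.4 in ws2 and 63.1, 77.1 and 55.6 in cngc1 (log2 fold change -0.35). The cngc1 and ws2 arrays of these TBL genes were close together and did not overlap.

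The UGT glycosyltransferases, which attach sugars to hormones and secondary compounds, lay evenly about 0 but with members at some distance. Of 24 tested, 13 were positive and 11 negative, and the cngc1 arrays lay above the ws2 arrays for 5 (20.8%) and below them for 3 (12.5%), beside 6.98% and 5.85% of all probe sets. None passed the test. UGT76C1, which glucosylates cytokinins, read 21.7, 23.6 and 17.3 in ws2 and 48.7, 33.3 and 26.6 in cngc1, at least 1.08-fold higher, and UGT71C5, which glucosylates abscisic acid, read 90.3, 89.8 and 104 in ws2 and 170.1, 128 and 108 in cngc1 (log2 fold change 0.43). UGT72E3, of the monolignol glucosyltransferases, read 109, 86.2 and 105 in ws2 and 68.6, 69.7 and 50.7 in cngc1 (log2 fold change -0.56), and UGT76B1, known for conjugating isoleucic acid, read 359, 266 and 356 in ws2 and 230.5, 184 and 219 in cngc1 (log2 fold change -0.59). The groups did not overlap for these 4 genes.

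Genes of calcium and peptide signalling are of interest beside a channel of this family, and none of those measured passed. Of 6 tested calmodulins and calmodulin-like proteins, which bind calcium, 5 were negative in log2 fold change (median -0.23). CML38 read 43.4, 36.8 and 29.5 in ws2 and 21.1, 25.1 and 9.9 in cngc1, without overlap. No bound is given for CML38, as the interval of its log2 fold change against ws2 ran from -1.47 to 0.23. Its signal reached 122 on 1 akt1 array and 120.0 on 1 cngc4 array. CML30 read 37.2, 40.9 and 27.6 in ws2 and 26.8, 42.7 and 5.6 in cngc1 (log2 fold change -0.43), with 1 cngc1 array above all ws2 arrays and 1 far below them. Of 7 tested RALF-like peptides, signals that alter calcium and pH at the cell surface, 5 had a negative log2 fold change, and the median of -0.16 turned to 0.01 with no filter on signal. RALFL32 read 537, 511 and 492 in ws2 and 389, 391 and 449 in cngc1, the lowest 3 of 12 arrays (log2 fold change -0.32, adjusted p = 0.668). TET3, a tetraspanin, which organises membrane proteins, read 400.4, 348 and 415 in ws2 and 318, 323 and 307 in cngc1 (log2 fold change -0.28), again lowest in cngc1. It had the lowest log2 fold change of 9 tested tetraspanins, of which 5 were positive and 4 negative (median 0.005). Genes on the lists of calcium pumps and exchangers and of calcium-dependent kinases have no named probe set here.

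The 26 probe sets at least 2-fold apart, 5 higher (0.0339%) and 21 lower (0.142%), were often split among the cngc1 arrays. In 13 of the 21 lower ones, cngc1 replicate 2 read at least 2-fold above both other cngc1 arrays, so the difference rested on replicates 1 and 3. Without cngc1 replicate 2 there were 69 such probe sets, 13 higher and 56 lower, and without cngc1 replicate 3 there were 30. Of the 26, 20 had ws2 and cngc1 arrays that did not overlap and 13 name 1 gene.

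AT4G10270 read 331, 319 and 382 in ws2 and 54.5, 270.2 and 53.7 in cngc1, with 755, 327 and 250.1 in akt1 and 595, 652 and 142 in cngc4. AT3G03270 read 851, 682 and 712 in ws2 and 209, 561 and 194 in cngc1, with 1336, 604 and 517 in akt1 and 1303, 865 and 362 in cngc4. In both, replicate 2 of cngc1 stood nearest to ws2, replicate 1 of akt1 was the highest akt1 array, and replicate 3 of cngc4 was the lowest cngc4 array. AT4G33560 (143, 132 and 120.2 in ws2 and 25.3, 93.8 and 29.5 in cngc1, with 318, 60.8 and 67.3 in akt1 and 305, 208 and 28.3 in cngc4) and AT3G29970 (142, 166 and 343 in ws2 and 53.8, 319 and 21.7 in cngc1, with 1236, 114 and 86.4 in akt1 and 899, 916 and 111 in cngc4) likewise had replicate 2 as the highest cngc1 array, replicate 1 as the highest akt1 array and replicate 3 as the lowest cngc4 array, and for AT3G29970 cngc1 and ws2 overlapped. Their log2 fold changes were -1.68, -1.34, -1.32 and -1.18, with adjusted p from 0.607 to 0.807. PDC2, a pyruvate decarboxylase of fermentation, read 159, 173 and 251 in ws2 and 134, 137 and 124 in cngc1, with 413, 109 and 103 in akt1 and 398, 375 and 207 in cngc4 (log2 fold change -0.48), and shared the high akt1 replicate 1 but not the split of the cngc1 arrays. For each of these genes the range within akt1 and within cngc4 was wider than the difference between the ws2 and cngc1 means.

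AT4G01390 read 66.0, 64.3 and 31.3 in ws2 and 2.7, 24.8 and 2.6 in cngc1, and AT5G23840 read 70.7, 33.1 and 94.4 in ws2 and 5.2, 23.8 and 31.2 in cngc1. Both lay below the 40th percentile on every cngc1 array, so AT4G01390 was at least 1.58-fold lower and AT5G23840 at least 1.87-fold lower, although their fitted values put them among the 26. AT2G16005 read 170.3, 218 and 132 in ws2 and 92.8, 73.8 and 64.3 in cngc1 (log2 fold change -1.01), with 151, 291 and 171 in akt1 and 259, 118 and 182 in cngc4. It was lowest on the 3 cngc1 arrays and differed from cngc4 past the test (-1.07, adjusted p = 0.0282). In the other direction AT5G13520 read 53.0, 13.2 and 11.2 in ws2 and 77.3, 59.5 and 109 in cngc1 (log2 fold change 1.34), clear of ws2 by a small margin. It read 15.4, 82.4 and 19.4 in akt1 and 29.7, 49.0 and 7.8 in cngc4, so akt1 replicate 2 lay within the cngc1 range. On 2 of the ws2 arrays it lay below the 40th percentile.

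**Figure D5:**
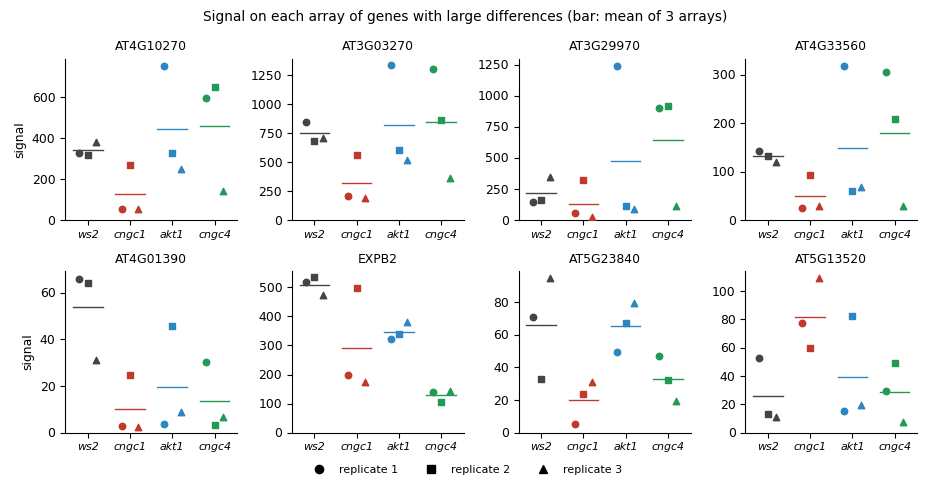
Signal in arbitrary units on each array, by genotype, for 7 genes at least 2-fold apart between cngc1 and ws2 and for EXPB2, with a bar at the mean of the 3 arrays and a symbol for each replicate number. In AT4G10270, AT3G03270, AT3G29970, AT4G33560 and EXPB2 the square of cngc1 replicate 2 stands well above the other cngc1 arrays.

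The summed signal of the 3 Casparian strip genes given above did not overlap between cngc1 and ws2. None of those 3 is among the markers set for endodermis and suberin, so their sum is no reading of a cell type. Among the lists of cell type markers, the summed signals of root hairs and green tissue overlapped. The 3 tested root hair genes summed to 395 to 821.5 on the ws2 arrays and 317 to 677 on the cngc1 arrays. GUT2, of xylem wall synthesis, read 104, 139.5 and 144 in ws2 and 107, 98.0 and 142 in cngc1, and SWEET11, of phloem, read 86.9, 109 and 114 in ws2 and 102, 85.7 and 88.7 in cngc1, each overlapping. The 11 tested nuclear photosynthesis genes, markers of green tissue, summed to 585 to 1021 in ws2 and 562 to 903.5 in cngc1, with a median log2 fold change of -0.07. Of 62 tested plastid-encoded genes 35 were positive and 27 negative in log2 fold change (median 0.02), and of 12 mitochondria-encoded genes 7 were positive and 5 negative. Markers of the root cap and of the meristem have no named probe set here.

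Across the 44 lists with a named probe set, which hold 368 distinct tested genes, 0 lists had a member that passed, and for the 25 lists with at least 5 tested genes the median log2 fold change lay between -0.25 and 0.15. The germin-like proteins had 6 positive and 3 negative values over 9 tested genes, and their summed signal of 1241 to 1464 in ws2 and 1765 to 2489 in cngc1 was set by AT3G05950. Autophagy genes (5 positive and 5 negative), WRKY factors (3 and 2), bHLH and bZIP factors (5 and 8), tubulins and actins (6 and 2), histones (1 and 4) and serine carboxypeptidases (9 and 8) showed no member past the test in cngc1 roots.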

How the data were processed

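The authors deposited intensities on a linear scale, 1 value for each probe set on each array. The program that computed them is not named in the labels or files. Root total RNA was prepared with TriZOL, biotin-labelled and measured on an array with 22810 probe sets, per the labels' protocols. The mean after trimming 2% at each end was 100.0 on every array, which shows a scaling made before deposit. Groups and replicate numbers came from the labels, and no 2 arrays held identical values.

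Before testing, 64 control probe sets were dropped, as were those that failed to exceed their array's 40th percentile on at least 3 arrays. The scale was log2(signal + 16), without renormalization. A fit of 4 genotype means over the 12 arrays was made with limma 3.58.1 in R 4.3.3 (eBayes with trend). It was tested on simulated data, and gave two-sided p-values adjusted by Benjamini-Hochberg at 0.05. Exact permutation of 3 against 3 arrays has a smallest p of 0.10 and was not used. The number of arrays limits the precision. A fold change against a group below the 40th percentile on every array is given as a bound, if its interval excludes 0, while counts, list medians and figures use fitted values.

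Gene names came from the array's annotation table (13513 probe sets name 1 gene, 503 several, 8794 are unnamed here), and 13436 of these were found in the TAIR10.1 gene table, used for symbols and gene order. Coordinates are left out because no source states the array's build. For a gene on a list the brightest tested probe set was used; of 70 genes with several tested probe sets, 49 had the same sign in all. The genes named were the called gene, the 15 of smallest p in each direction with arrays that do not overlap, up to 4 members per list, and genes within 5 places of the called gene. Members and lists were chosen with earlier results of these data known. The genes with a symbol, those at least 2-fold apart and single other values were picked after their values were seen. Figures were drawn with matplotlib 3.10.9 in Python 3.11.15.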

Additional observations from a re-analysis of the deposited data

Results flagged for a closer look

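The values here are tests of whether a gene's difference from ws2 was the same size in cngc1 as in another mutant, which equals the difference between the mutants, on the log2 scale with limma's adjusted p. Over the genes named here and the probe set of second smallest p, 18 results for 17 probe sets passed. Genes were named by their values on the same cngc1 arrays, so this number is descriptive only.

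AT1G27090 was lower in cngc1 than in akt1 by -1.80 and than in cngc4 by -2.14, on 3 of 3 arrays each. The other results concern cngc4 only, whose arrays also stand apart from cngc1 for 762 probe sets. Lower in cngc1 than in cngc4 were AT2G16005 (-1.07), EXLB1 (-0.97), SWEET2 (-0.90), AT5G56980 (-0.87), NAC014 (-0.64), AT1G27100 (-0.62), AT3G49070 (-0.51) and the probe set with no named gene (-1.47). ATHSP22.0 and AT4G04630 were lower too, with fitted differences of -0.81 each, but both lay below the 40th percentile on every cngc1 array. The bound for AT4G04630 is at least 1.27-fold, and ATHSP22.0 has none because its cngc4 signals were themselves near that percentile. AT4G04630 read 17.9, 18.8 and 13.8 in cngc1 and 12.4, 27.1 and 11.9 in akt1, against 41.7, 38.5 and 46.4 in ws2 and 35.8, 36.9 and 53.1 in cngc4, with all 3 akt1 arrays below the 40th percentile as well. Higher in cngc1 than in cngc4 were AT3G07720 (1.15), XTH32 (0.94), BGLU42 (0.92), AT5G62360 (0.90), AT5G14650 (0.86) and AT5G13900 (0.63). AT3G07720 read 1129, 677 and 1507 in cngc1 and 362, 553 and 495 in cngc4, against 545, 545 and 652 in ws2, so that cngc1 lay above ws2 and cngc4 replicate 2 lay within the ws2 range. AT5G62360 read 89.1, 70.8 and 75.6 in cngc1, above ws2 at 55.6, 62.1 and 43.5 and cngc4 at 35.6, 33.3 and 34.5. AT5G14650 and AT5G13900 were below ws2 in cngc1 and lower again in cngc4, at 109, 76.5 and 136 and 113, 82.1 and 108.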

How the results depend on the processing

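AT1G27090 passed under all 25 alternatives, with log2 fold changes from -2.65 with no offset to -1.32 with an offset of 64. Calls in cngc1 against ws2 numbered 1, and 21 by a rule of unadjusted p under 0.05 and at least 2-fold; leaving out each array gave 1 to 2. Against akt1 the 1 call became 4 with array weights and 22 by the unadjusted rule, and 1 to 11 with an array left out (11 without akt1 replicate 1, 3 without ws2 replicate 3, 2 without cngc1 replicate 3). Against cngc4 the 762 calls became 402 with no filter, 419 without the arrays marked as repeats, 341 with the 2 groups alone and 226 by the unadjusted rule, and 129 to 871 with an array left out. The 1080 probe sets with an unadjusted p under 0.05 became 716 with the 60th-percentile filter, 459 without marked arrays and 770 to 1398 with an array left out. The 26 probe sets at least 2-fold apart numbered 30 to 69 without cngc1 replicate 3 or 2, an alternative chosen after seeing the data. The 15 genes named in each direction kept their sign under every alternative in which they were fitted, and apart from AT1G27090 none passed. EXPB2 passed without cngc1 replicate 2 (-1.38). Signs turned for SWEET11 (0.031 with the repeat mark as a covariate, 0.070 without marked arrays), GUT2 (0.0989 and 0.12) and AT1G27100 (0.019 without marked arrays, and -0.13 to 0.015 with an array left out); the cause was not tested. Of 450 list medians under alternatives, 30 moved by more than the SD between cngc1 arrays. Replicate numbers were not taken as pairs: of 18 same-number pairs of deviations 3 correlated over 0.1 (range -0.17 to 0.27), and with the replicate block the calls against ws2 remained 1 in number. Signal over background limits dim probe sets.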
